A study of Mus musculus with 5 samples.

Results

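Solute carriers are a large group of membrane proteins that move small molecules across membranes, and the genes examined here were those whose symbol has the form Slc, a family number, the letter a and a member number. The pattern found 163 of the 11194 genes in a table of RNA recovered with an anti-Staufen1 antibody from mouse muscle stem cells. By the family's known location, 71 were placed at the plasma membrane and 34 in the mitochondrion (the Slc25a family without the peroxisomal carrier Slc25a17). Another 36 were placed in other intracellular membranes, 17 were left unassigned because their location is uncertain or mixed, and 5 carry a symbol of this form but are not carriers (Slc4a1ap, Slc7a6os, Slc9a3r1, Slc9a3r2 and Slc2a4rg-ps). The RefSeq gene table lists 355 mouse symbols of this form, and those outside the table of counts were not analysed here.

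Staufen1 binds paired stretches of RNA and takes part in RNA transport, translation and decay. RNA immunoprecipitation (RIP-seq) was performed on quiescent muscle stem cells, the resident precursor cells of skeletal muscle, from mice labelled Stau+/+ (wild type, 3 libraries) or Stau-/- (knockout, 2 libraries). All 5 libraries were immunoprecipitates made with the same antibody, and no input library was used here, so how much of a transcript the cells held and how much of it was recovered on the beads enter one count. If the knockout cells hold no Staufen1, as their genotype label implies, their libraries measure what the antibody and beads recover without it. The labels do not give the allele, age or strain, or whether each library came from its own animal, and p-values here reflect no more than the spread among these libraries, which may be technical. In bulk samples, fewer cells of a type and less RNA per cell cannot be told apart.

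Plasma membrane carriers set what a cell takes up and releases: amino acids, sugars, lactate, ions, metals and vitamins. They are made at the endoplasmic reticulum, and some work only in a pair with a partner protein, as the CD98 heavy chain Slc3a2 does with light chains such as Slc7a5. The Slc25 carriers are made on cytosolic ribosomes, are inserted into the inner mitochondrial membrane, and exchange nucleotides, phosphate, metabolites and cofactors between the cytosol and the matrix. The comparison asked whether transcripts of either group were recovered at different levels from wild type and knockout cells.

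Library totals ran from 3091302 counts (knockout 2) to 105473455 (wild type 1), a span of 34.1-fold, and a count of 0 would allow a level of up to 0.0290 to 0.954 CPM (counts scaled to a common library total), counting error only. Stau1 itself was recovered at 104, 127 and 118 CPM from wild type and at 109 and 111 CPM from knockout cells, with a log2 fold change of 0.08 (edgeR adjusted p = 0.847), so its RNA level does not check the genotype labels, and how the allele was made is not given in the sources used here. Markers of other cells moved with the groups. Of 16 endothelial markers 6 were called higher in knockout by edgeR, with summed levels of 1649 to 2273 CPM in wild type against 3493 and 3773 CPM in knockout, and of 7 red cell markers 3 were, at 287 to 364 against 535 and 885 CPM. Of 12 muscle stem cell markers 4 were called higher in wild type, at 5403 to 6133 against 3357 and 3593 CPM. Sdc4 alone had means of 2016 CPM in wild type and 1052 CPM in knockout. All 12 lay above 0 and 9 had an unadjusted edgeR p under 0.05, but Pax7 and Itga7 moved little (log2 fold changes 0.14 and 0.02). The summed level of 13 muscle fibre markers was 475 to 673 CPM in 4 libraries and 2768 CPM in knockout 2. Of 10 fibro-adipogenic markers 2 were called higher in wild type and 1 in knockout. The part of these shifts in the results on carriers was not tested.

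None of the 163 genes was at 0 in any library, and all of them passed the filter on low counts. The table as deposited holds genes that reached 3.02 CPM in 3 libraries, which wild type alone can meet and knockout alone cannot. 2 of the 163 (Slc2a13 and Slc29a2) were below that level in both knockout libraries and are present only through wild type, where they had to be higher. The summed level of all 163 genes was 10950.2, 11089 and 11255 CPM in wild type and 10706 and 10196 CPM in knockout. To compare levels between genes, CPM was divided by the length of each gene in kilobases (RPKM). On that scale the median level of the 163 genes was 4.30 RPKM, against 6.95 RPKM for all genes, with 5.96 RPKM for plasma membrane, 4.34 RPKM for mitochondrial and 3.48 RPKM for other intracellular carriers.

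A few carriers made up the top of the range. Slc25a5, the ADP/ATP carrier ANT2, had the highest mean, with 444, 343 and 470.3 RPKM in wild type and 226 and 248 RPKM in knockout. Slc3a2, the CD98 heavy chain, was measured at 283, 339 and 259 RPKM in wild type and 277 and 279 RPKM in knockout. Slc10a6, which takes up sulfated steroids, was measured at 256, 243 and 277 RPKM against 362 and 194 RPKM, so that its 2 knockout libraries lay on either side of every wild type library. Slc38a2 (SNAT2), a sodium-coupled importer of small neutral amino acids, was at 159.8, 189.8 and 186 RPKM in wild type and 218 and 166 RPKM in knockout, with overlapping groups. The nucleobase carrier Slc43a3 stood at 172, 177 and 179.8 RPKM in wild type and 127 and 144 RPKM in knockout. Its wild type values all lay above its knockout values, with a log2 fold change of 0.38 (95% interval 0.01 to 0.75) that did not pass the test (edgeR adjusted p = 0.234). Slc39a14 (ZIP14), an importer of zinc, iron and manganese, was at 76.5, 71.8 and 64.5 against 77.9 and 59.4 RPKM, again with overlap.

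Beside Slc25a5, the highest mitochondrial carriers were the other ADP/ATP carrier Slc25a4 (ANT1), the phosphate carrier Slc25a3, the glutathione importer Slc25a39 and the citrate carrier Slc25a1. Among carriers of other intracellular membranes Slc50a1 (SWEET1), a sugar carrier, had the highest mean, at 29.2, 31.8 and 43.8 RPKM in wild type and 48.6 and 32.5 RPKM in knockout. It was followed by Slc35a4, the zinc carrier Slc30a5, the iron carrier Slc11a2 (DMT1) and the peroxisomal Slc25a17. Neighbours in this order were not always apart: the libraries of Slc3a2 and Slc10a6 overlapped, as did those of Slc38a2 and Slc25a4.

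**Figure D1:**
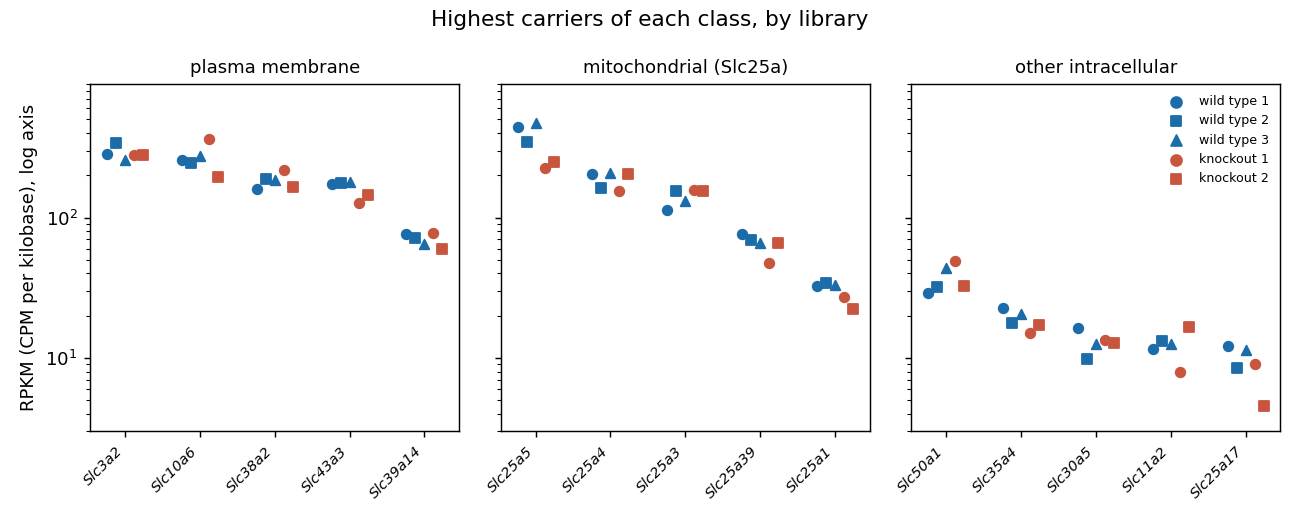
The 5 carriers with the highest mean RPKM over the 5 libraries in each class, with 1 point per library on a log axis of RPKM; blue marks wild type and red marks knockout. Slc25a5 has the highest mean, and its 3 wild type points all lie above its 2 knockout points, while the points of most other genes mix.

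With the edgeR quasi-likelihood test, Benjamini-Hochberg adjustment over all 11194 genes and a threshold of 0.05, 1 of the 163 genes was called: Slc25a5, higher in wild type. That is 0.613% of the genes of this name, against a background of 2.05% of all genes (1.05% on the wild type side, 1.00% on the knockout side, or 118 and 112 genes, which were 93 and 143 with total counts as library sizes). None was called higher in knockout. At an unadjusted p under 0.05 edgeR gave 32 of 163 (19.6%), against 20.4% of all genes. By direction these were 20 toward wild type (12.3%, against 10.4%), with Slc2a13 among them, and 12 toward knockout (7.36%, against 9.99%). DESeq2 called 8 of 163 (4.91%, against 7.95% of all genes), 5 of them higher in wild type and 3 in knockout, and limma-voom called none (0.197% of all genes).

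The libraries of the 2 groups did not overlap for 60 of 163 genes (36.8%), against 38.4% of all genes. Wild type was higher in 38 of them (23.3%, against 20.4%), with Slc2a13 and Slc29a2 included, and knockout in 22 (13.5%, against 18.1%). The median size of the log2 fold change was 0.34 for the 163 genes and 0.33 for all genes. Of the 163, 13 lay beyond a 2-fold difference, as did 948 of all 11194 genes, and 11 of the 13 were under 10 CPM. The shares over both directions were near those of the whole table. How small a difference could be seen depended on the level. For the 48 genes over 50 CPM the median standard error of the log2 fold change was 0.21 and for 41 of them the 95% interval lay within a 2-fold difference either way. For the 53 genes under 10 CPM the median standard error was 0.53 and for 1 the interval did. Over all 163 genes 72 had such an interval (44.2%, against 48.8% of all genes), and for the other genes a 2-fold difference was not excluded at this depth.

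**Figure D2:**
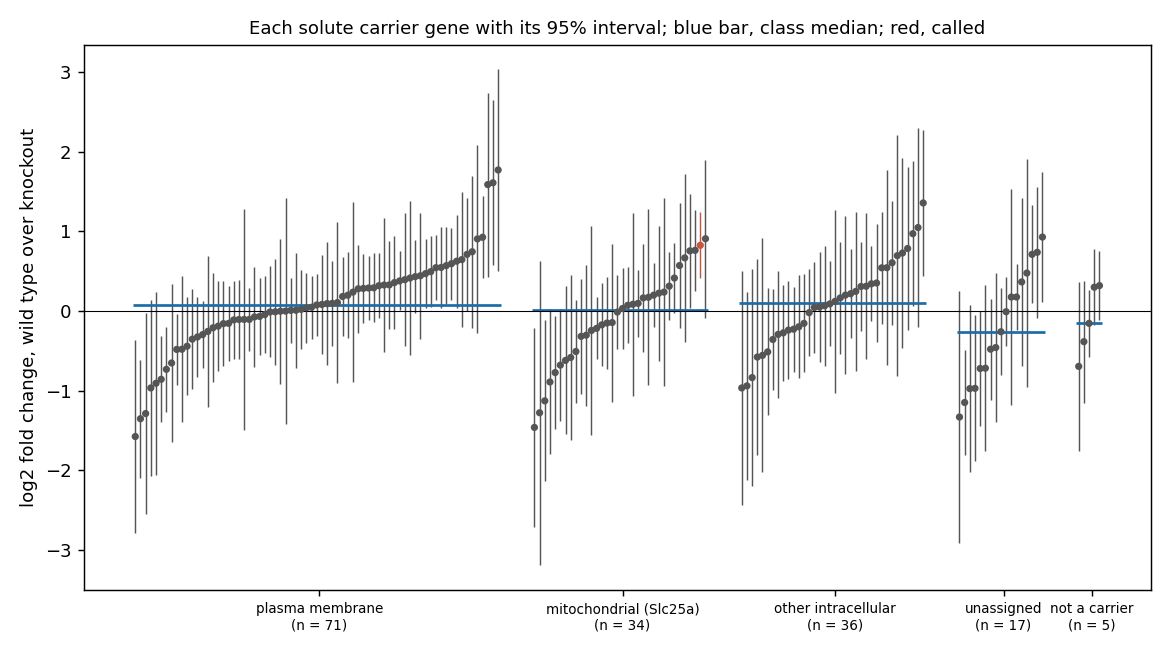
Log2 fold change of wild type over knockout for each of the 163 genes, ordered by size within its class, with the 95% interval from edgeR; the blue bar is the class median and red marks the called gene. Most intervals cross 0, Slc25a5 at 0.82 is the single called gene, and the class medians lie between -0.26 and 0.10.

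Plasma membrane and mitochondrial carriers were then set side by side. None of the 71 plasma membrane carriers was called by edgeR in either direction. At an unadjusted edgeR p under 0.05, 13 were higher in wild type and 6 in knockout (10.4% and 9.99% of all genes were). DESeq2 called 2 in each direction (7.95% of all genes either way). Of the 34 mitochondrial carriers edgeR called 1 higher in wild type (2.94%, against 2.05% of all genes either way) and 33 were not called. At an unadjusted edgeR p under 0.05, 3 were higher in each direction. The groups did not overlap for 20 plasma membrane carriers with wild type higher and 8 with knockout higher, and for 7 mitochondrial carriers each way (20.4% and 18.1% of all genes). The 36 other intracellular carriers held 5 and 1 such genes and the 17 unassigned ones 5 each way. Slc2a13 and Slc29a2, in the table only through wild type, are among the 20 plasma membrane carriers, and Slc2a13 is among the 13. These genes cannot count toward a direction.

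The median log2 fold change was 0.08 for plasma membrane carriers (quartiles -0.16 and 0.40), 0.01 for mitochondrial carriers (-0.46 and 0.23), 0.10 for other intracellular carriers and 0.00 for all genes. The plasma membrane median was thus 0.07 above the mitochondrial one. With genes under 10 CPM left out, Slc2a13 and Slc29a2 among them, the difference was 0.01. Counted per library, as the median of log2 CPM centred on each gene's mean over the 5 libraries, plasma membrane carriers stood at 0.05, 0.06 and 0.05 in wild type and at -0.04 and -0.12 in knockout. Mitochondrial carriers stood at 0.11, 0.03 and 0.09 against 0.04 and 0.04, and the plasma membrane minus mitochondrial difference at -0.06, 0.03 and -0.04 against -0.09 and -0.16. The 2 knockout libraries had the lowest values of that difference. On the same scale the muscle stem cell markers stood at 0.27, 0.18 and 0.36 against -0.34 and -0.36, and the endothelial markers at -0.12, -0.57 and -0.35 against 0.54 and 0.40. The part of these shifts in the small offset of the plasma membrane carriers was not tested.

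**Figure D3:**
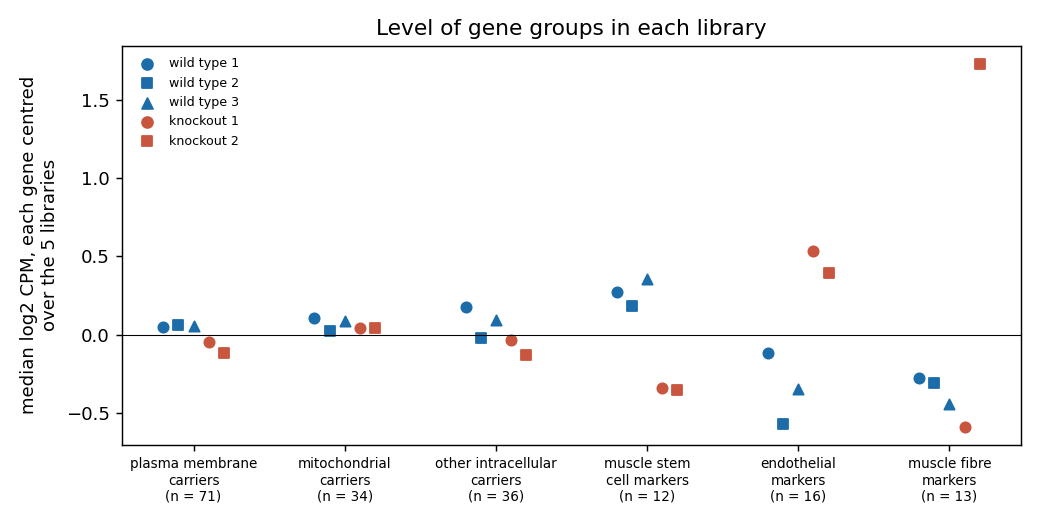
Median log2 CPM of 6 gene groups in each of the 5 libraries, each gene centred on its mean over the libraries; blue marks wild type, red knockout. Both the plasma membrane and the mitochondrial carriers lie between -0.12 and 0.11 in every library, while the muscle stem cell and endothelial markers separate the genotypes and the muscle fibre markers set knockout 2 apart at 1.73.

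Slc25a5 lies at chrX:36795651-36798807 (mm10, + strand). It encodes an ADP/ATP carrier, which brings ATP made in the matrix to the cytosol in exchange for ADP. It was recovered at 731, 564 and 774 CPM from wild type cells and at 371 and 408 CPM from knockout cells. The lowest wild type library thus lay above the highest knockout library. Mean levels were 689.7 ± 111 CPM (SD, n = 3) and 389.5 ± 25.9 CPM (SD, n = 2), a 1.77-fold difference of means. The log2 fold change was 0.82 (95% interval 0.41 to 1.24, SE 0.19, edgeR adjusted p = 0.0457). The filter on low counts removed no gene, so the fit with no filter repeats the main one. The call was close to the threshold and, counting that repeat, was made in 7 of 14 alternative settings. It was lost with RLE factors (adjusted p = 0.0502), with total counts (0.0554), with limma-voom (0.122) and without wild type 1, wild type 3, knockout 1 or knockout 2 (0.121, 0.160, 0.131 and 0.108), while the log2 fold change stayed between 0.72 and 0.95. RefSeq lists processed copies of Slc25a5 at other loci (Slc25a5-ps and Gm5560), and reads that fit several copies make its count uncertain.

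The other carriers of the same step of energy metabolism were not called. Slc25a4 (ANT1), the form known for its abundance in heart and skeletal muscle, was at 484, 382 and 488 CPM in wild type and at 365 and 480.4 CPM in knockout. Its log2 fold change was 0.10 (95% interval -0.32 to 0.51, edgeR adjusted p = 0.828), so a 2-fold difference lay outside the interval. The ratio of Slc25a5 to Slc25a4 in RPKM was 2.16, 2.11 and 2.27 in wild type and 1.45 and 1.21 in knockout. That ratio did not overlap between the groups. Slc25a5 is the gene called in these same 5 libraries, so its ratios are no separate support for a difference. The ratio to Slc25a3, which imports the phosphate used for ATP synthesis, was 3.90, 2.23 and 3.56 in wild type and 1.44 and 1.61 in knockout. Slc25a3 itself was at 632, 852 and 734 CPM against 867 and 853 CPM. Here the knockout values lay just above all wild type values, with a log2 fold change of -0.22 (edgeR adjusted p = 0.539). A small nucleolar RNA gene lies within Slc25a3.

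Among the other mitochondrial carriers, those with a small p toward wild type included Slc25a38 and Slc25a1. Slc25a38, which brings glycine into the matrix for heme synthesis, was at 42.5, 40.2 and 49.1 CPM in wild type and 25.8 and 26.1 CPM in knockout. The groups did not overlap, and its log2 fold change was 0.76 (edgeR adjusted p = 0.0969, SE 0.24). Slc25a1, which exports citrate, was at 70.8, 74.2 and 71.8 against 59.6 and 48.4 CPM (log2 fold change 0.41). Every wild type library was above every knockout library for this gene too, and it was not called (edgeR adjusted p = 0.278).

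Toward knockout the smallest p values in the mitochondrial class belonged to Slc25a35, Slc25a16, Slc25a37 and Slc25a47, none of them called (edgeR adjusted p between 0.179 and 0.253). Slc25a35 was at 2.64, 1.43 and 5.40 CPM in wild type and 7.23 and 10.5 CPM in knockout, and Slc25a16 at 3.14, 4.44 and 4.13 against 7.64 and 9.54 CPM. Both were low, and their log2 fold changes of -1.46 and -1.13 had standard errors of 0.58 and 0.47. Slc25a37 (mitoferrin 1), an iron importer known for its high level in developing red cells, was at 20.8, 24.1 and 16.1 CPM in wild type and 47.3 and 20.7 CPM in knockout. Its groups overlapped, and its value rested on knockout 1, without which the log2 fold change was -0.03. Slc25a47 was at 6.41, 5.84 and 13.7 against 17.9 and 14.0 CPM, without overlap. The red cell markers stood at 287 to 364 CPM in wild type and at 535 and 885 CPM in knockout 1 and knockout 2, and their part was not tested.

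Besides Slc25a38, 6 further carriers had an edgeR adjusted p between 0.05 and 0.10. All 7 showed no overlap between the groups, as did 38.4% of all genes, but they were picked for a small p in the same libraries. The largest in size was Slc2a12 (GLUT12), a glucose carrier, at 9.28, 9.64 and 13.7 CPM in wild type and 4.50 and 2.23 CPM in knockout (chr10:22645011-22704285). Its log2 fold change was 1.61 (edgeR adjusted p = 0.0871, SE 0.48). It shares 407 exonic bases with Tbpl1 on the opposite strand, whose own log2 fold change was -0.24. Slc2a8 (GLUT8), an intracellular hexose carrier, was at 12.8, 11.0 and 10.1 CPM in wild type against 4.61 and 4.14 CPM in knockout (chr2:32972990-32982083), with a log2 fold change of 1.36 (edgeR adjusted p = 0.0976, SE 0.43). The third on the wild type side was Slc31a1 (CTR1), the main importer of copper, at 79.3, 62.6 and 80.6 CPM against 46.2 and 30.9 CPM (chr4:62360727-62391769). It had a log2 fold change of 0.93 (edgeR adjusted p = 0.0607, SE 0.24).

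The other 3 were higher in knockout. Slc28a2 (CNT2), a sodium-coupled importer of purine nucleosides, was at 6.10, 9.34 and 9.21 CPM in wild type and 20.9 and 21.0 CPM in knockout (chr2:122426477-122461137), with a log2 fold change of -1.35 (edgeR adjusted p = 0.0568, SE 0.35). The paralog Slc28a2b lies on the same chromosome, and reads common to both make its count uncertain. Slc22a21, a carnitine carrier, was at 10.7, 13.2 and 11.3 CPM in wild type and 21.8 and 30.5 CPM in knockout (chr11:53949965-53980332), with a log2 fold change of -1.15 (edgeR adjusted p = 0.0648, SE 0.31). A pseudogene and a noncoding gene overlap it. Slc4a2 (AE2), which exchanges chloride for bicarbonate, was at 54.2, 86.9 and 93.4 CPM in wild type and 114 and 171 CPM in knockout (chr5:24423837-24440950), with a log2 fold change of -0.86 (edgeR adjusted p = 0.0818, SE 0.25). It shares 694 exonic bases with Fastk on the opposite strand, whose log2 fold change was -0.71, and reads of the 2 genes cannot be told apart there unless strand was used. All 7 of these genes were called by DESeq2, which used the same counts and called 7.95% of all genes.

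**Figure D4:**
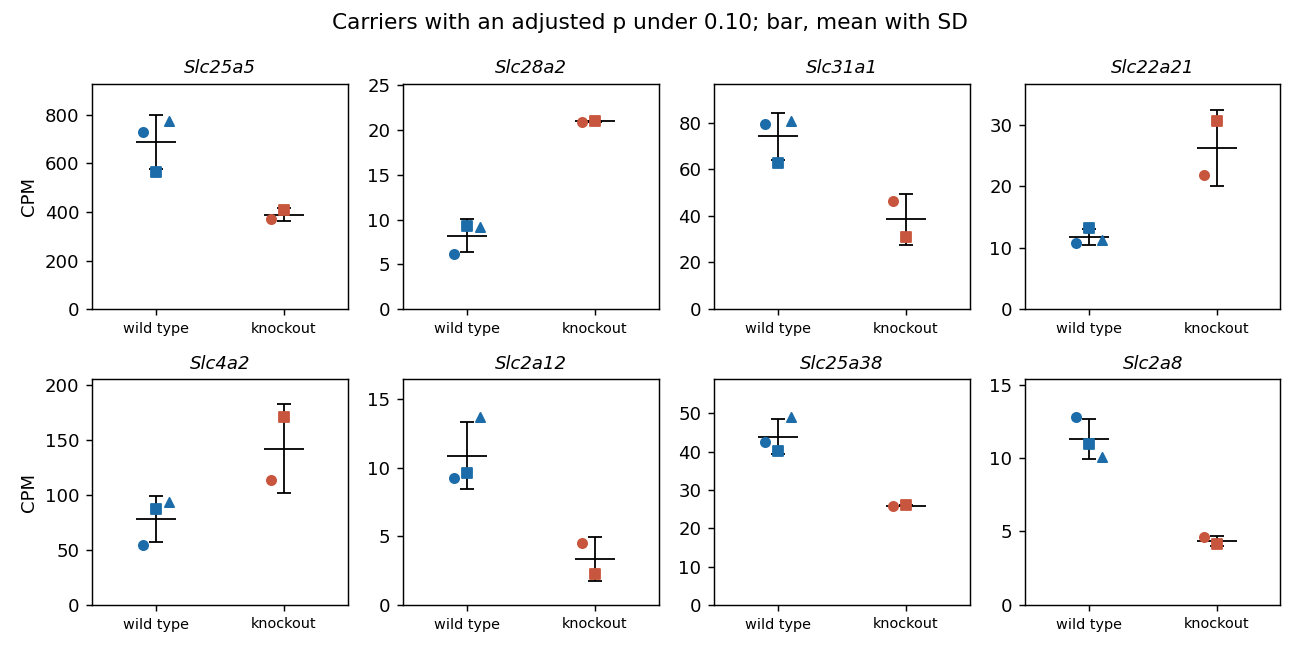
CPM in each library for the 8 carriers with an edgeR adjusted p under 0.10 (blue, wild type; red, knockout; the bar is the mean and the whiskers the SD of 3 or 2 libraries; each panel has its own axis from 0). In all 8 panels the points of the 2 genotypes are apart; Slc25a5, Slc31a1, Slc2a12, Slc25a38 and Slc2a8 are higher in wild type and the other 3 in knockout.

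Families were next read by substrate, with the families described here picked after their values were seen, so that their counts are descriptions. The facilitative sugar carriers of the Slc2 family leaned toward wild type. Of 7 genes none was called by edgeR and DESeq2 called 2 (Slc2a8 and Slc2a12, against 7.95% of all genes). Of the 7, 5 had an unadjusted edgeR p under 0.05 (20.4% of all genes did). The same 5 showed no overlap, all with wild type higher, as did 20.4% of all genes. Slc2a1 (GLUT1), the basal glucose carrier, was at 98.6, 72.4 and 71.2 CPM in wild type and 59.6 and 48.7 CPM in knockout (log2 fold change 0.57, edgeR adjusted p = 0.179). Slc2a10 was at 16.9, 13.6 and 23.8 against 11.7 and 6.68 CPM (0.93). Slc2a13, a proton-coupled importer of myo-inositol, was at 4.80, 7.24 and 5.59 against 2.20 and 0.954 CPM (1.77, SE 0.59). With Slc2a8 and Slc2a12 these form the 5, of which Slc2a13 is in the table only through its wild type libraries and cannot count toward a direction.

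The remaining sugar carriers did not lean this way. Slc2a3 (GLUT3) was at 38.6, 44.2 and 39.0 CPM in wild type and 43.3 and 47.4 CPM in knockout, with overlap. Slc2a4 (GLUT4), the insulin-responsive form of muscle fibres and fat, was at 4.15, 8.09 and 7.48 against 2.09 and 13.0 CPM, so that the 2 knockout libraries were the lowest and the highest of all 5. Without knockout 2, its log2 fold change went from -0.11 to 1.65. The median log2 fold change of the Slc2 family was 0.93, against 0.00 for all genes, and between 0.68 (without wild type 3) and 1.44 (without knockout 1) over the 14 alternatives. These values include Slc2a13, which raises the median and cannot count toward a direction. The fit to genes of at least 10 CPM in 2 libraries leaves Slc2a13 out. There the median was 0.73 over the 4 genes tested. The endothelial and muscle stem cell markers moved with the genotypes as given above, and their part in the values of this family was not tested.

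The bicarbonate carriers of the Slc4 family leaned toward knockout, and the median over 5 genes was -0.73 on the log2 scale (between -0.94 and -0.36 over the alternatives). None was called by edgeR, and DESeq2 called Slc4a2 (7.95% of all genes). At an unadjusted edgeR p under 0.05 there were 3, all toward knockout (9.99% of all genes). Besides Slc4a2, the chloride-bicarbonate exchanger Slc4a3 (AE3) was at 34.4, 62.0 and 45.4 CPM in wild type and 85.1 and 71.3 CPM in knockout (log2 fold change -0.73, edgeR adjusted p = 0.121). Slc4a8 was at 1.66, 3.28 and 1.83 against 3.46 and 7.95 CPM. All 3 had every knockout library above every wild type library, as did 18.1% of all genes. The sodium-coupled Slc4a7 and Slc4a4 had log2 fold changes of 0.04 and 0.64, with overlap. Among the other ion carriers, the sulfate carrier Slc26a2 was at 9.35, 7.54 and 10.8 CPM in wild type against 1.89 and 4.77 CPM in knockout (1.59, SE 0.54, edgeR adjusted p = 0.119). The potassium-chloride cotransporter Slc12a4 was at 85.8, 119 and 123 against 168 and 136 CPM (-0.48), with every knockout library higher.

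**Figure D5:**
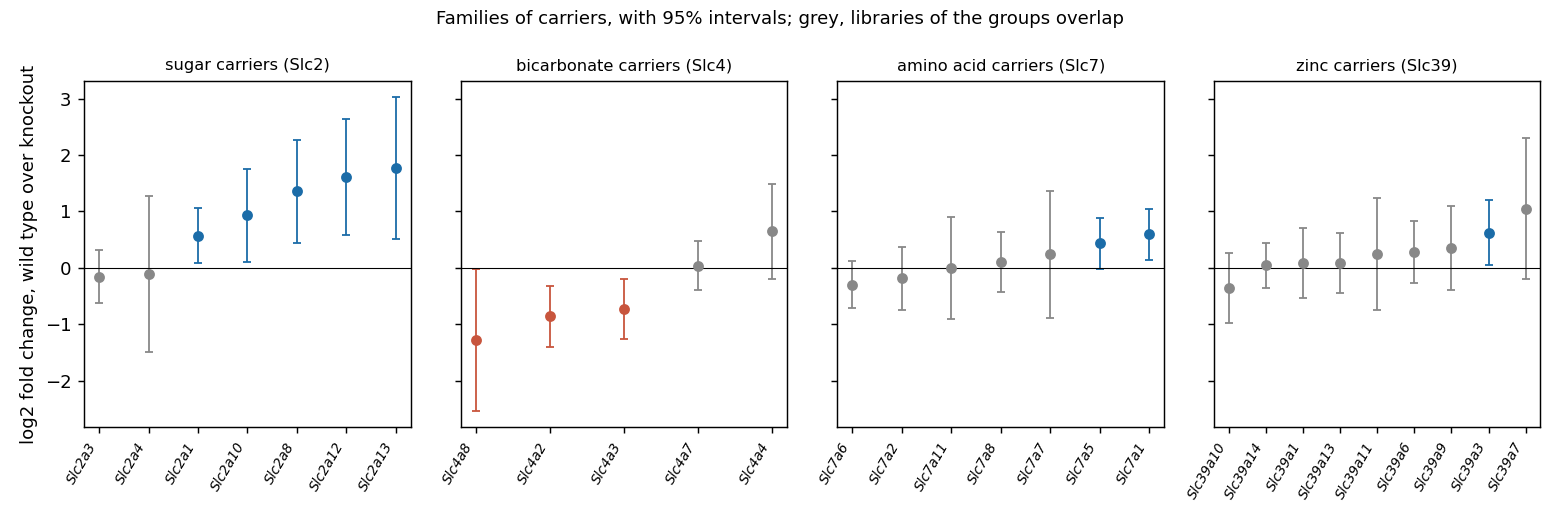
Log2 fold change of wild type over knockout with the 95% interval from edgeR for the genes of 4 families; blue marks genes with every wild type library higher, red every knockout library higher, and grey genes whose groups overlap. In the Slc2 panel 5 of 7 genes are blue, among them Slc2a13, which is in the table only through wild type. In the Slc4 panel 3 of 5 are red, and most genes of Slc7 and Slc39 are grey.

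Of 26 genes in families that carry amino acids (by family, so that Slc43a3 is among them) none was called by edgeR or DESeq2, and 3 (11.5%) had an unadjusted p under 0.05, against 20.4% of all genes. Their median log2 fold change was 0.14, against 0.00 for all genes and 0.08 for plasma membrane carriers. The groups did not overlap for 7 with wild type higher (26.9%, against 20.4%) and for 2 with knockout higher (7.69%, against 18.1%). Slc3a2 was at 836, 1002 and 765 CPM in wild type and 821 and 826 CPM in knockout, with a log2 fold change of 0.08 (95% interval -0.31 to 0.46). Its light chain partner Slc7a5 (LAT1), an exchanger of large neutral amino acids, was at 128, 96.6 and 92.8 against 71.5 and 85.9 CPM. All wild type values of Slc7a5 were above the knockout values, with a log2 fold change of 0.43 (95% interval -0.03 to 0.89, edgeR adjusted p = 0.276). The arginine and lysine importer Slc7a1 (CAT1) showed the same order at 160.3, 144 and 110.4 against 85.5 and 98.3 CPM, or 138 ± 25.5 (SD, n = 3) and 91.9 ± 9.08 CPM (SD, n = 2). Its log2 fold change of 0.59 did not pass (edgeR adjusted p = 0.137).

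The glutamine carrier Slc1a5 (ASCT2) was at 152, 217 and 235 CPM in wild type and 177 and 259 CPM in knockout, with a log2 fold change of -0.11 (95% interval -0.60 to 0.38). Slc38a2 had one of -0.11 (95% interval -0.50 to 0.29). For both a 2-fold difference in either direction lay outside the interval. Toward knockout the smallest p among amino acid carriers was that of the glutamate carrier Slc1a1 (EAAC1), at 4.15, 1.46 and 2.89 against 5.97 and 11.5 CPM (-1.58, SE 0.57, edgeR adjusted p = 0.139). Its groups did not overlap. The monocarboxylate carriers that move lactate had small positive values. Slc16a1 (MCT1) was at 72.0, 43.5 and 75.0 against 40.8 and 59.5 CPM (0.36), and Slc16a3 (MCT4) at 162, 142 and 147 against 132 and 108 CPM (0.32), and neither was called (edgeR adjusted p = 0.495 and 0.372).

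Metal carriers numbered 22, with a median log2 fold change of 0.13 and no call by edgeR, while DESeq2 called Slc31a1 (7.95% of all genes). Of the 22, 4 (18.2%) had an unadjusted edgeR p under 0.05, all toward wild type (20.4% of all genes either way, 10.4% toward wild type). The zinc importers of the Slc39 family lay above 0 in 8 of 9 genes (50.3% of all genes did), with a median of 0.25. Without knockout 2 these were 6 of 9 and 0.050, and the median was between 0.050 and 0.27 over the alternatives. They included the plasma membrane carrier Slc39a3 at 28.2, 25.0 and 26.5 CPM in wild type and 17.0 and 17.5 CPM in knockout (0.62). Slc39a7 (ZIP7), which releases zinc from the endoplasmic reticulum, was at 7.27, 4.26 and 7.62 against 1.89 and 4.77 CPM (1.05, SE 0.58), with overlap. Slc30a6, which moves zinc into the Golgi, was at 10.2, 9.18 and 11.8 against 5.24 and 5.41 CPM (0.97, edgeR adjusted p = 0.214), without overlap. Slc41a1, a magnesium carrier, was at 208, 156 and 216 against 148 and 131 CPM (0.47), also without overlap. The 5 nucleotide sugar carriers of the Slc35a family, which supply the Golgi, had values above 0 (0.06 to 0.69, median 0.31), and none was called or had an unadjusted p under 0.05. Without wild type 1 the values were above 0 in 3 of 5 (median 0.12), and without knockout 2 also in 3 of 5 (median 0.088). Slc35 genes outside the symbol pattern lay on both sides of 0. They ran from -0.75 in Slc35b3, with every knockout library higher, to 0.91 in Slc35e4, with every wild type library higher.

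Several intracellular carriers were set by a single library. Slc37a4, the glucose-6-phosphate carrier of the endoplasmic reticulum, was at 2.86, 4.81 and 6.72 CPM in wild type and 2.30 and 17.5 CPM in knockout. Slc11a1 (NRAMP1), a metal carrier of macrophage phagosomes, was at 6.84, 3.53 and 3.09 against 2.93 and 14.0 CPM. Slc33a1, the acetyl-CoA carrier, was at 5.91, 3.71 and 6.61 against 1.78 and 15.3 CPM. In all 3, knockout 2 was the highest library and knockout 1 the lowest. Without knockout 2 the log2 fold change of Slc37a4 went from -0.97 to 1.06 and that of Slc11a1 from -0.84 to 0.62. Slc46a3, a lysosomal carrier, was high in knockout 1 instead, at 4.88, 3.98 and 7.14 against 16.1 and 3.50 CPM, as was the copper carrier Slc31a2 at 15.1, 8.79 and 14.8 against 23.7 and 12.4 CPM. None of the 5 was called. The summed level of 10 macrophage markers was 268 to 422 CPM in wild type and 401 and 402 CPM in knockout. None of them was called by edgeR, and 1 had an unadjusted edgeR p under 0.05 (20.4% of all genes did). The muscle fibre markers were high in knockout 2 (2768 CPM). The part of the macrophage and muscle fibre markers in these values was not tested.

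Carriers known under other names were counted as well. Of 34 measured carriers outside the symbol pattern, 1 was called higher in wild type by edgeR (2.94%, against 2.05% of all genes either way) and none in knockout, with a median log2 fold change of 0.12. The groups did not overlap in 32.4%, with 29.4% higher in wild type and 2.94% in knockout, against 20.4% and 18.1% of all genes. Those higher in wild type include Mfsd8, at 4.35, 5.87 and 6.31 CPM in wild type and 1.26 and 0 CPM in knockout. Both knockout values of Mfsd8 are under 3.02 CPM, so it is present only through wild type and cannot count toward a direction. The called gene was Pqlc1, at 339.9, 267 and 321 CPM in wild type and 188 and 136 CPM in knockout, with a log2 fold change of 0.93 (edgeR adjusted p = 0.0379). Of 18 mitochondrial carriers and channels outside the Slc25 family none was called by edgeR, 3 (16.7%, against 20.4% of all genes) had an unadjusted p under 0.05, DESeq2 called 2 (7.95% of all genes), and the median was 0.06. The pyruvate carrier subunits Mpc1 and Mpc2 had log2 fold changes of -0.11 and -0.15, and the uncoupling protein Ucp2 one of -0.38, all with overlap. Letm1, an ion exchanger of the inner membrane, was at 61.0, 56.6 and 48.9 CPM against 34.6 and 23.9 CPM (0.90, edgeR adjusted p = 0.0688).

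Of 21 partner proteins and pumps that maintain the gradients carriers use, 1 was called higher in wild type (4.76%, against 1.05% of all genes on that side). It was Rragc, a GTPase that signals amino acid supply from the lysosome, at 39.3, 25.5 and 31.5 CPM in wild type and 14.9 and 6.36 CPM in knockout (1.52, edgeR adjusted p = 0.0457). Bsg (basigin), the partner of Slc16a1 and Slc16a3, was at 445, 349 and 504 CPM against 385 and 282 CPM, with overlap (0.37, edgeR adjusted p = 0.342). The sodium pump subunit Atp1b1 was low, at 7.13, 6.20 and 7.03 CPM against 1.78 and 0.318 CPM (2.44, edgeR adjusted p = 0.0607), and is present only through wild type, since both knockout values are under 3.02 CPM.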

How the data were processed

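RNA recovered with an anti-Staufen1 antibody was measured in 3 wild type and 2 knockout libraries, made per the labels' protocols from 100 pg of RNA with oligo(dT) priming and sequenced as 101 bp read pairs. The submitters' processing notes name the mm10 genome, STAR, featureCounts (Subread), Trim Galore and edgeR, without versions, and whether counting used strand is not stated there. Values in the deposited file are raw counts for each gene, beside coordinates and a gene length. Low genes had been removed before deposit: the third-highest CPM of a gene was never below 3.02, so genes seen in knockout alone could not pass.

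The deposited counts were fitted with edgeR 4.0.16 under R 4.3.3 (TMM scaling after filterByExpr, estimateDisp, glmQLFit, two-sided quasi-likelihood F-test, Benjamini-Hochberg over 11194 genes, threshold 0.05), checked on simulated data. Standard errors are the log2 fold change over the square root of F. CPM uses TMM library sizes, and RPKM is that CPM per kilobase of the deposited length. Alternatives were RLE, upper-quartile and no scaling factors, DESeq2 1.42.0, limma-voom 3.58.1, no filter, a filter of at least 10 CPM in 2 libraries, the replicate number as a block, leaving out each library, and thinning to the shallowest total. The fit with no filter repeats the main one, since filterByExpr removed no gene.

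Members, classes and gene lists were chosen with earlier results of these data known, and classes were assigned by hand from general knowledge of each family. Genes named were, by rule, those past the threshold, those with adjusted p from 0.05 to 0.10, per class the 5 of highest RPKM and the 4 of smallest p in each direction, 10 set names (Slc1a5, Slc7a5, Slc3a2, Slc2a1, Slc2a4, Slc16a1, Slc16a3, Slc25a3, Slc25a4 and Slc25a5) and the 3 of smallest p in each other list; the others were named after their values were seen. Some results are not reported here. Of the 163 genes, 16 share exonic bases with another gene of the table. A planned count of the carrier signature in protein sequences was not made here. Same-numbered wild type and knockout libraries deviated from their group means with correlations of 0.050 and 0.040, so the numbers were not taken to pair them. Replicates of a group differed beyond counting noise (chi-square per degree of freedom 17.7 to 258).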

Additional observations from a re-analysis of the deposited data

How the results depend on the processing

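In the whole table edgeR called 118 genes higher in wild type and 112 in knockout. DESeq2 called 433 and 457, limma-voom 8 and 14, and the fit blocked on replicate number (replicate block) 288 and 324. Counts thinned to the shallowest library gave 175 in knockout, and leaving out 1 library gave 11 to 176 in wild type and 23 to 172 in knockout. The cause of these differences was not tested. RLE factors, total counts and limma-voom left 0 of the 163 genes called, and 0 of the mitochondrial class. Of all genes these settings called 1.89%, 2.11% and 0.197%. DESeq2 called 5 in wild type (2 plasma membrane, 2 mitochondrial, 1 other intracellular) and 3 in knockout (2 plasma membrane, 1 unassigned), against 7.95% of all genes. Testing genes of at least 10 CPM in 2 libraries, fewer than before, called 1 plasma membrane carrier, Slc28a2, in knockout (3.36% of all genes tested were called). With the replicate block, in which wild type 3 has a term of its own, 3 were called in wild type (Slc25a5 and the 2 plasma membrane carriers Slc31a1 and Slc7a1) and 3 in knockout (2 plasma membrane, Slc28a2 and Slc4a2, and 1 mitochondrial, Slc25a35), against 5.47% of all genes, and the log2 fold change of Slc2a4 was 0.12. Without wild type 1 or wild type 3, 0 of the 163 genes were called, against 0.545% and 0.304% of all genes. Without wild type 2, 1 was called (Slc25a5, higher in wild type), against 3.11% of all genes. The plasma membrane minus mitochondrial median of 0.07 was 0.0081 in the fit to genes of at least 10 CPM, 0.011 over members of at least 10 CPM, 0.12 after thinning, and 0.023 to 0.18 without 1 library. Slc2a4 was 0.35 with limma-voom, and after thinning Slc30a5 was 0.037 and Slc11a2 -0.0745. The log2 fold changes of these uncalled genes crossed 0 when 1 library was left out: Slc10a6 from -0.49 to 0.42, Slc11a1 from -1.64 to 0.62, Slc11a2 from -0.41 to 0.65, Slc1a5 from -0.37 to 0.18, Slc25a4 from -0.090 to 0.31, Slc2a4 from -0.99 to 1.65, Slc30a5 from -0.23 to 0.14, Slc31a2 from -0.87 to 0.057, Slc37a4 from -1.87 to 1.06, Slc38a2 from -0.29 to 0.10, Slc39a14 from -0.14 to 0.26, Slc3a2 from -0.038 to 0.15, Slc46a3 from -1.59 to 0.61 and Slc50a1 from -0.48 to 0.10. Of the 913 values computed for single genes and lists in the alternatives, 808 kept their direction and call. The 913 include the single genes just named and the fit with no filter, which repeats the main one. Low counts in knockout 2 limit genes under 10 CPM.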
